A study of Mus musculus with 12 samples.

Results

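Allele use on the X chromosome was compared between 2 libraries taken at day 35 of reprogramming, one from cells given 30 nM Shield1 (the course labelled MidK1) and one from cells given none (the course labelled LowK). The members are the genes measured in both. A single-base variant was taken when both libraries listed it with at least 20 covering reads, and its reads were summed per gene. This gave 1632 of the 6478 such sites that any library of the series listed, and they lay in 235 of 399 genes. Both cell populations came from mouse embryonic fibroblasts and both carried the vector SeVdp(fKOSMaB), so the labels set them apart only by Shield1. The series has 12 libraries of poly(A) RNA in all. Besides this pair it holds 2 untreated fibroblast libraries at day 0 (MEF1 and MEF2), later days of LowK and MidK1 (52 and 56), and a second course with 30 nM Shield1 (MidK2) at days 18 to 36. The labels do not name the strains, the parent each X chromosome came from, any feeder cells, or how many cultures went into a library. Each condition was 1 library at day 35, so every test below compares 2 libraries and covers counting error only, not the spread between cultures.

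In female mammals 1 of the 2 X chromosomes is silenced in each somatic cell, and genes that stay readable on the silent copy are said to escape. Reprogramming of fibroblasts towards a naive pluripotent state is known to reopen the silent X, gene by gene. SeVdp is a Sendai virus vector that persists in the cytoplasm and carries reprogramming factors. Shield1 is a small molecule that protects a protein from breakdown when it is fused to a destabilising domain, so that the dose sets how much of the fused protein stays. Which factor carries the domain is not given in the labels.

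The quantity followed is the reference share, the percentage of reads at a gene's sites without the variant allele. Where an X chromosome with the variants is the one read, this share is near 0, and reads of an X chromosome with the reference bases raise it. In bulk RNA, a share in between does not tell a fraction of cells that read both alleles from all cells reading the second allele at a lower level. Only positions with variant reads are listed, at 10 percent or more of reads in these tables, so the share of a listed site cannot exceed 90 percent and a gene with reference reads alone goes unseen.

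The sites printed here were chosen among those behind the results because they let the measurement be seen: each is a single base in the coding sequence of a gene whose reads shifted at day 35. The stretches have 25 bases, run 5′ to 3′ on the gene's own strand and come from the GENCODE M21 transcripts of GRCm38 (mm10). The capital marks the base that differs between the alleles, shown as the reference has it, and the token after each gene in the sentences that follow counts positions from 1 at the 5′ end of the stretch.
Gpkow: cattgaaggctgCacagaatcagga
Tfe3: cacaacgttccaTgtatcgggagga
Hdac6: tggggaggacatGccccactcacac
Dynlt3: taacatcaaccaAtggactgcaagc
Bcor: agatgaggaagaGgatacctatagc
Utp14a: cgtgcctgtcatGcagagcaatcca

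At the Dynlt3 site (A13G, minus strand, chrX:9657099-9657123) 56.2% of 130 reads kept the reference base with Shield1 (95% Wilson interval 47.6 to 64.4), against 2.82% of 71 reads without it (0.776 to 9.70). At the Bcor site (G13C, minus strand, chrX:12038986-12039010) the share was 52.8% of 125 reads (44.1 to 61.3) against 3.50% of 143 (1.5 to 7.92). At the Utp14a site (G13C, plus strand, chrX:48282256-48282280) it was 49.5% of 216 reads (42.9 to 56.2) against 11.4% of 105 (6.66 to 18.9). None of these 3 pairs of intervals overlapped, and the library with Shield1 was the higher each time. The printed sites all lie in genes called higher, so that direction follows from the choice of genes. The Hdac6 site (G13A, minus strand, chrX:7930472-7930496) gave 33.0% of 97 reads against 10.6% of 85, again with intervals apart (24.4 to 42.8 and 5.67 to 18.9). The Gpkow site (C13T, plus strand, chrX:7706068-7706092) gave 42.9% of 28 reads against 0 of 25, which allows a share of up to 12%, and a second shared site lies within its stretch. The Tfe3 site (T13C, plus strand, chrX:7773628-7773652) shows the limit of 1 shallow site: 36% of 25 reads (20.2 to 55.5) against 15.4% of 26 (6.15 to 33.5), with overlapping intervals, while the 20 Tfe3 sites together separated clearly.

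With Shield1 at day 35, 17 of the 235 genes had a higher reference share by at least 20 percentage points, and 1 gene, Bgn, had a lower one. A gene was called at a Benjamini-Hochberg adjusted p under 0.05 (two-sided Fisher's exact test, adjusted over all 235 genes) together with that difference. The called genes make up 7.23 percent of the genes tested in the higher direction and 0.426 percent in the lower. The largest differences were in Plp2 (a membrane protein of the endoplasmic reticulum), Dynlt3 (a dynein light chain), Bcor (a transcriptional corepressor of Polycomb complexes) and Gpkow (a protein of the spliceosome), each above 50 points. Most genes moved far less: the median reference share over genes was 4.35% with Shield1 and 2.04% without, and the median difference was 2 points. The remaining 217 genes were not called. Without the limit on size, 82 genes (34.9 percent) were higher at an adjusted p under 0.05 by Fisher's exact test and 1 was lower, and 178 genes had a difference above 0, 39 below 0 and 18 at 0. For 199 of the uncalled genes the upper bound of the difference lay under 20 points, and for 18 it reached 20, so a shift of that size in these 18 was not excluded at this depth.

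**Figure D1:**
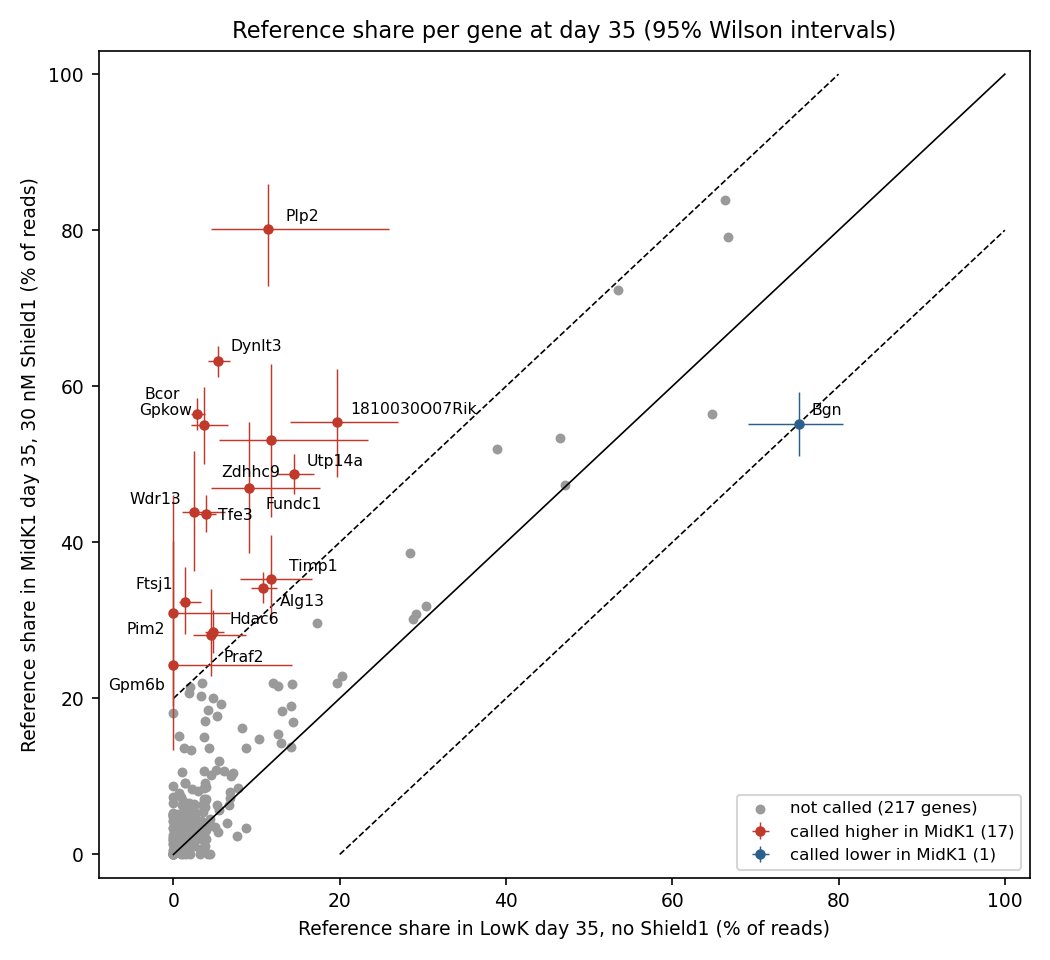
Reference share of each of the 235 genes without Shield1 (x axis, percent) against with Shield1 (y axis, percent) at day 35, with dashed lines at a difference of 20 points either way and 95% Wilson intervals on the called genes. Most genes sit near the lower left corner, 17 lie above the upper dashed line and Bgn alone is called below the lower one.

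Genes read from both alleles were also more frequent in the library with Shield1, a count over genes that carries no test. A gene counted as biallelic when the median over its sites of the smaller allele share was at least 10 percent. With Shield1 54 of 235 genes (23 percent) met this and without it 19 (8.09 percent). The 19 were biallelic in both libraries, 35 in the Shield1 library alone and 0 in the other library alone. Depth was alike in the pair: the shared sites held 121843 reads with Shield1 and 118290 without, at a median of 42 and 41 reads per site.

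Of the 17 genes, 8 lay near the centromeric end in the stretch from Plp2 to Ftsj1, in which 19 genes were measured. Plp2 (chrX:7667941-7671390, 1 site) had a reference share of 80.1% of 141 reads with Shield1 and 11.4% of 35 without, a difference of 68.7 points (52.4 to 77.7, adjusted p = 7.04e-13 by Fisher's exact test). It was the highest share of any called gene, and it rests on a single site. Gpkow (chrX:7697131-7710262, 11 sites) had 55.0% of 387 reads against 3.73% of 295, a difference of 51.3 points (45.6 to 56.5). All 11 of its sites moved up by 34.1 to 65.7 points. Praf2 (chrX:7728439-7731064, 5 sites), which encodes a membrane protein of vesicle traffic, had 28.1% of 242 reads against 4.52% of 177, which is 23.6 points and close to the limit of 20, and 4 of its 5 sites rose by 20 points or more.

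Tfe3 (chrX:7762560-7775202) encodes a basic helix-loop-helix transcription factor that holds back or permits the exit from naive pluripotency according to where in the cell it resides. Its 20 sites gave 43.7% of 1681 reads with Shield1 (41.3 to 46.0) and 3.86% of 1167 without (2.89 to 5.12), a difference of 39.8 points (37.1 to 42.4, adjusted p = 1.65e-142 by Fisher's exact test). Each of the 20 sites rose by 20.6 to 49.0 points. Pim2 (chrX:7878262-7883432, 2 sites), a serine/threonine kinase gene, had 31.0% of 42 reads against 0 of 53, and the 0 allows a share of up to 5.66%. Hdac6 (chrX:7930120-7947889), the gene of a cytoplasmic deacetylase that acts on tubulin, had 28.5% of 1050 reads against 4.78% of 1254 over 16 sites, a difference of 23.7 points (20.7 to 26.7), and 15 of the 16 sites rose by 20 points or more. Its sites covered a narrow range of 16.9 to 32.9 points.

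Wdr13 (chrX:8123301-8132892), a WD-repeat protein gene, had 43.9% of 155 reads with Shield1 and 2.48% of 161 without over 5 sites, a difference of 41.4 points (32.9 to 49.4). Ftsj1 (chrX:8238668-8252406), the gene of a methyltransferase that modifies transfer RNA, had 32.4% of 454 reads against 1.44% of 348 over 8 sites, a difference of 30.9 points (26.4 to 35.5). All sites of both genes moved up by at least 20 points. Not all genes of the stretch from Plp2 to Ftsj1 did so. Suv39h1, a histone H3 lysine methyltransferase gene that sits next to Wdr13, had 0 of 101 reads against 0 of 97 over 3 sites, which allows a share of up to 2.97% and 3.09%. Otud5, a deubiquitinase gene between Tfe3 and Pim2, had 4.08% against 6.49%, and Pcsk1n, the gene of a neuroendocrine protease inhibitor between Pim2 and Hdac6, had 3.48% against 0.631%. Timm17b, a subunit of the mitochondrial import channel, had 19.3% against 5.73% and stayed under the size limit at 13.5 points. In the stretch, 8 genes were thus called higher and 11 were not, with called and uncalled genes interspersed along it.

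**Figure D2:**
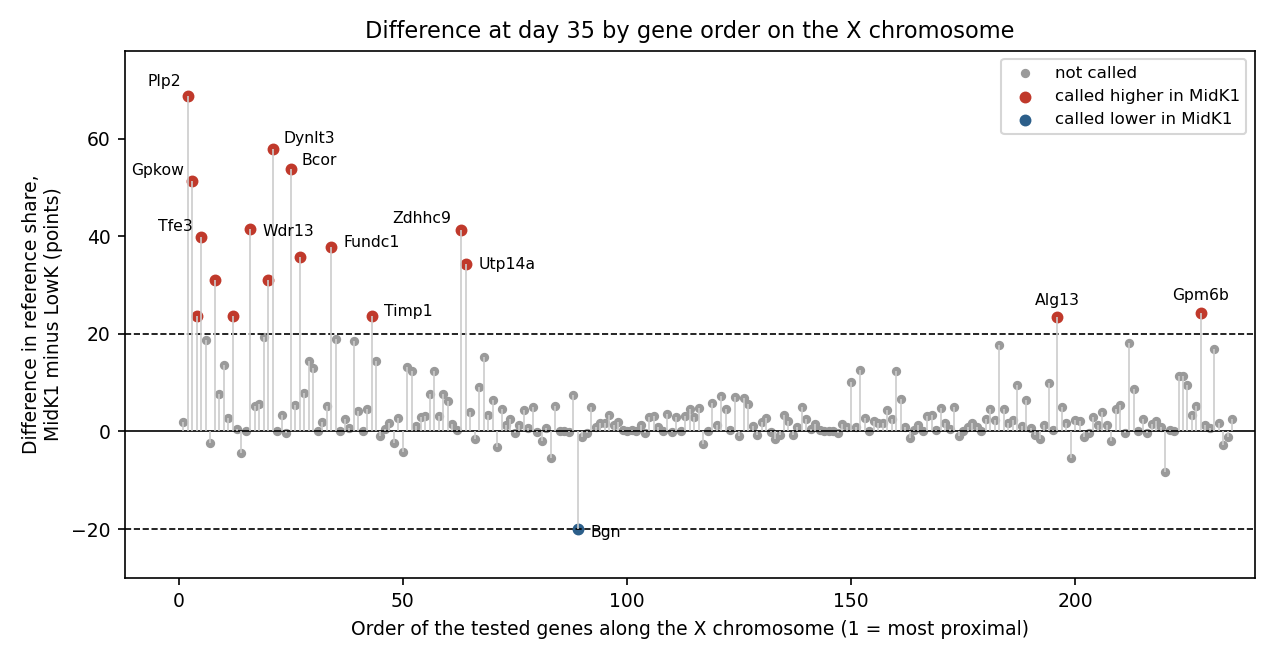
Difference in reference share (Shield1 minus none, percentage points, y axis) for the 235 genes in their order along the X chromosome (x axis, rank from the centromeric end), with called genes in color and most of them named. Called genes crowd at the left end, where 13 of the 44 genes of the first 30 Mb lie above 20 points.

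Along the whole chromosome, the first 30 Mb held 13 of the 17 genes called higher. There 13 of 44 measured genes (29.5 percent) were called and the median difference was 7.85 points, while beyond it 4 of 191 (2.09 percent) were called and the median was 1.65 points. The first 10 Mb gave 9 of 21 genes with a median of 18.8 points. The well-covered stretches from 70 to 80 Mb (35 genes), 100 to 110 Mb (28 genes) and 130 to 140 Mb (27 genes) gave 0 genes called higher. This division at 30 Mb was drawn after the positions had been seen and carries no test.

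Beyond Ftsj1 in the first 30 Mb, Dynlt3 and Bcor combined large differences with many reads. Dynlt3 (chrX:9654267-9663003), a light chain that links cargo to the dynein motor, had 63.2% of 2246 reads with Shield1 (61.2 to 65.1) and 5.30% of 1150 without (4.15 to 6.75) over 20 sites. The difference was 57.9 points (55.4 to 60.2, adjusted p = 3e-264 by Fisher's exact test), and each site rose by 41.4 to 71.0 points. Most Dynlt3 reads thus came from the reference allele in the library with Shield1 and few did in the other. Bcor (chrX:12036740-12160355) had 56.5% of 2182 reads (54.4 to 58.5) against 2.79% of 1505 (2.07 to 3.75) over 31 sites, a difference of 53.7 points (51.4 to 55.9, adjusted p = 2.35e-299 by Fisher's exact test). All 31 Bcor sites rose, by 34.7 to 78.6 points. Of these, 18 lay in exons and gave 54.4% against 3.13%, and 13 lay in introns and gave 59.1% against 1.69%, so sites of both kinds shifted.

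Further along in the first 30 Mb, 3 more genes rose. 1810030O07Rik (chrX:12654879-12673668), a gene of little known function that is on published lists of escape genes, had 55.4% of 195 reads against 19.7% of 142 over 5 sites, a difference of 35.7 points (25.5 to 44.5). Its day 35 share without Shield1 was the highest among the 17. Fundc1 (chrX:17556564-17572325), the gene of a receptor for removal of mitochondria by autophagy, had 47.0% of 132 reads against 9.09% of 77 over 3 sites, a difference of 37.9 points (26.0 to 47.5). Timp1 (chrX:20870166-20874735), an inhibitor of matrix metalloproteinases that fibroblasts secrete, had 35.3% of 289 reads against 11.7% of 214 over 4 sites, a difference of 23.6 points (16.3 to 30.4). In Timp1 3 of the 4 sites rose by 20 points or more.

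The 4 other genes called higher lay far from this cluster. Zdhhc9 (chrX:48171969-48208878), a palmitoyltransferase gene, had 53.1% of 96 reads with Shield1 and 11.8% of 51 without at 2 sites, a difference of 41.4 points (26.1 to 52.9). Its near neighbour Utp14a (chrX:48256862-48282453), a factor of small ribosomal subunit assembly that is also on published lists of escape genes, had 48.7% of 1451 reads (46.2 to 51.3) against 14.5% of 909 (12.4 to 17.0) over 11 sites. The Utp14a difference was 34.2 points (30.7 to 37.5), and its sites rose by 24.1 to 50 points. Gpm6b (chrX:166238911-166388988), a membrane glycoprotein gene best known from neural cells, had 24.3% of 37 reads against 0 of 23, which allows a share of up to 13.0%. That single site passed by a small margin (adjusted p = 0.0296 by Fisher's exact test) and did not pass when each gene was given its best covered site only (adjusted p = 0.0691). With sites of at least 10 reads the Gpm6b difference was 26.6 points (adjusted p = 1.77e-19 by Fisher's exact test).

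Alg13 (chrX:144317804-144374450), a subunit of the enzyme that adds the second sugar in N-glycan synthesis, was the least even of the called genes. Over 34 sites, all in untranslated regions of annotated transcripts, it had 34.2% of 2211 reads with Shield1 and 10.8% of 1600 without, a difference of 23.4 points (20.8 to 25.8). Only 22 of the 34 sites rose by 20 points or more. Site shares ran from 0 to 89.4% with Shield1 and from 0 to 75% without, so its sites did not move as 1 block. The call was lost where sites needed 50 reads or where the best covered site alone was used, with a difference of 18.6 points at the lowest.

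**Figure D3:**
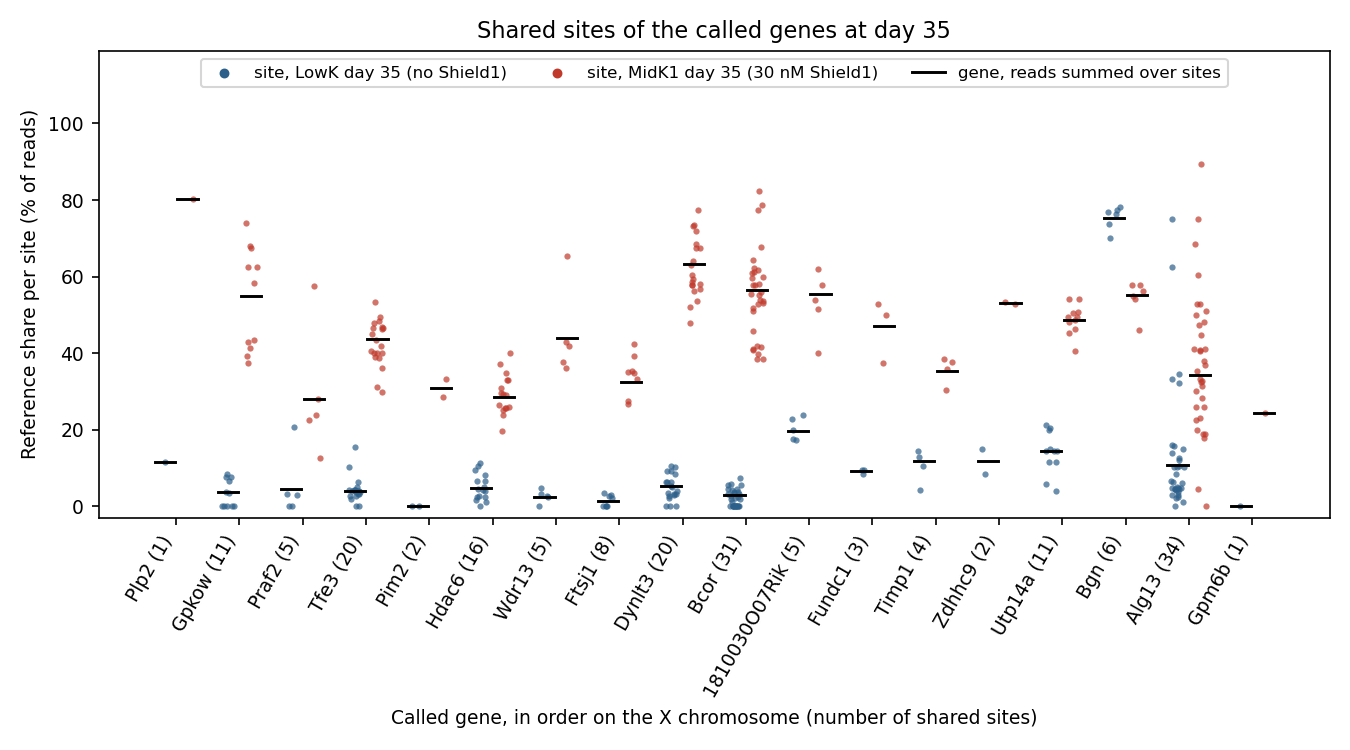
Reference share in percent (y axis) at each shared site of the called genes, without Shield1 in blue and with Shield1 in red, genes in chromosome order on the x axis and a black line at each gene's summed share. Red and blue points separate in most genes, mix in Alg13, and are inverted in Bgn.

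Bgn (chrX:73483602-73495933) was the only gene called in the other direction. It encodes biglycan, a small proteoglycan of the extracellular matrix made by fibroblasts and other connective tissue cells. Its 6 sites gave 55.2% of 565 reads with Shield1 (51.1 to 59.3) and 75.2% of 218 reads without (69.1 to 80.5), a difference of -20.01 points (-26.7 to -12.7, adjusted p = 1.98e-06 by Fisher's exact test). The 6 site shares were 46.0 to 57.8% with Shield1 and 70 to 78.3% without and did not overlap. In the library without Shield1 the reference allele was thus the main one at Bgn, unlike in any other called gene. The value sits at the size limit, and the call was lost with sites of at least 10 reads, with the best covered site alone and with sites at least 200 bases apart, where the difference was -15.8 points at its smallest. No Bgn site had 50 reads in both libraries, so the gene was not tested at that minimum. Bgn coverage per site, scaled to the median gene, was 2.69 times as high with Shield1. Its coverage was also divided by that in MEF1, fibroblasts of day 0, at the same sites without scaling for depth. This ratio was 0.0328 with Shield1 and 0.0127 without, so Bgn was read far less than in fibroblasts in both. Whether remaining fibroblasts take part in the Bgn values was not tested.

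Taking single sites, the 17 genes called higher held 179 shared sites. Of these 164 rose by 20 points or more and 0 fell by as much. The other 1447 sites, outside the called genes, included 33 that rose by 20 points or more and 0 that fell by as much. The genes were called on the summed reads of these same sites, so this contrast follows from the calls and is description only. No site of a called gene lay in an exon of another annotated gene.

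The genes just outside the size limit were higher as well. Porcn, the acyltransferase that activates Wnt proteins, had a difference of 19.4 points (adjusted p = 0.0102 by Fisher's exact test), and Gripap1, an endosome protein, one of 18.8 points (adjusted p = 0.0247 by Fisher's exact test). Uba1, the main ubiquitin-activating enzyme, had 22.0% with Shield1 and 3.42% without over 12 sites, a difference of 18.6 points (16.3 to 20.9). Tmsb4x, which encodes the actin-binding thymosin beta 4, had 20.3% against 3.35% at 1 deeply covered site, a difference of 16.9 points (14.5 to 19.4). These intervals are narrow, so both genes shifted by a size that this depth separates from 0. Klhl13, an adaptor of a cullin ubiquitin ligase, had 15.2% against 0.694%, and the deubiquitinase gene Usp9x had 18.5% against 4.13%. Sms, the spermine synthase gene, had 18.2% against 0 of 46 reads, which allows up to 6.52%. The called genes nearest to the limit from above were Bgn, Alg13 and Praf2.

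Genes with many reads and little shift were also plain to see. Rps4x, a ribosomal protein gene, had 2.40% with Shield1 and 0.867% without, a difference of 1.53 points (0.954 to 2.21). Atrx, a chromatin remodeller gene, had 8.52% against 7.70%, a difference of 0.815 points with an interval from -0.65 to 2.25 that includes 0. Rlim, a ubiquitin ligase gene that activates Xist in early embryos, had 2.86% against 3.23%. None of these 3 approached the limit. Hmgn5, a nucleosome-binding protein gene, was read from both alleles in each library, at 30.8% against 29.1%. Pdha1, a pyruvate dehydrogenase subunit gene, had 2.92% against 0.821%, Sh3bgrl 4.22% against 2.48%, and Wbp5 14.8% against 10.3%. Gm14681, annotated as a processed pseudogene, had 0.633% against 0.699%, and its reads may be shared with a near-identical copy, so its values are uncertain.

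Most measured genes on published lists of escape were read from both alleles in both libraries. Of 9 such genes, 2 were called higher (1810030O07Rik and Utp14a) and 1 lower (Bgn), with a median difference of 10.2 points beside 2 over all 235 genes. Over all 235 genes 7.23 percent were called higher and 0.426 percent lower. The list is small, and its counts were not tested against these shares. Ddx3x, an RNA helicase gene, had 51.9% of its reads on the reference allele with Shield1 and 38.9% without, a difference of 13.0 points (9.98 to 16.0, adjusted p = 7.42e-16 by Fisher's exact test). Pbdc1 had 38.6% against 28.4% (adjusted p = 0.00166 by Fisher's exact test). Both passed the test at a size below the limit. The histone demethylase gene Kdm6a had 72.4% against 53.4% on few reads (adjusted p = 0.0514 by Fisher's exact test), its relative Kdm5c had 30.1% against 28.8%, and the translation factor gene Eif2s3x had 47.4% against 47.1%.

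Other groups were measured less evenly. Of 17 genes tied to pluripotency only 3 were measured, and Tfe3 was called, Klhl13 was not, and neither was the homeobox gene Rhox5. Nr0b1, another X-linked gene of pluripotent cells, was not among the genes tested, nor was Xist, the RNA that silences the X chromosome, so the state of the cells could not be checked against them. Over all genes 7.23 percent were called higher, with a median difference of 2 points. The chromatin, housekeeping, ubiquitin and fibroblast groups are small, and their counts were not tested against that share. Of 24 chromatin and transcription genes 2 were called (Tfe3 and Bcor), with a median difference of 1.80 points. Of 25 housekeeping genes 0 were called, and 11 were higher at an adjusted p under 0.05 by Fisher's exact test at any size, beside 34.9 percent of all genes, with a median of 2.44 points. Of 11 genes of ubiquitin transfer 0 were called, with a median of 1.37 points. Of 12 measured genes from a list of genes known from fibroblasts, 2 were called higher (Plp2 and Timp1) and 1 lower (Bgn), with a median of 5.21 points. The list does not mark fibroblasts evenly: Plp2, Cd99l2, Efnb1 and Maoa had less coverage per site, not scaled for depth, in MEF1 than in both day 35 libraries. The 12 took 7.0 percent of all shared reads with Shield1 and 7.52 percent without, and 6 of them had the higher coverage with Shield1.

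Coverage gave the reads of each allele in the called genes. The mean coverage per site was taken as a ratio, with Shield1 over without, and divided by its median over genes, and the reads of each allele were scaled the same way. The genes called higher had a median ratio of 1.44, with 14 of 17 above 1 (82.4 percent), while the uncalled genes had a median of 0.982, with 102 of 217 above 1 (47.0 percent). Variant reads alone had a median ratio of 0.929 in the genes called higher and 0.952 in the uncalled ones. In the genes called higher, reference reads were more numerous with Shield1, while variant reads were at a median close to that of the uncalled genes. The calls used the same reads, so more reference reads relative to variant reads follow from the calls. Dynlt3 had 3.05 reference reads per site without Shield1 and 73.7 with it, beside 54.5 and 42.9 variant reads. Utp14a had 12 and 66.7 reference reads per site, beside 70.6 and 70.2 variant reads, so its variant reads hardly differed. Tfe3 had 2.25 and 38.1 reference reads per site, beside 56.1 and 49.2 variant reads.

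Not every called gene followed that form. Hdac6 had 3.75 reference reads per site without Shield1 and 19.4 with it, while its variant reads were 74.6 and 48.7, and its total coverage ratio was 0.870. Pim2 and Wdr13 had total ratios of 0.823 and 1.0 and variant read ratios of 0.568 and 0.575. In these 3 genes total coverage was not higher, and the allele balance differed all the same. Variant read ratios were also low in Gpkow (0.636), Bcor (0.674), Dynlt3 (0.789) and 1810030O07Rik (0.793), where total coverage was higher. Over the 17 genes called higher the variant read ratio ran from 0.568 to 1.26 and was below 1 in 11. Plp2 stood at the other end, with 4 and 117 reference reads per site beside 31 and 29.1 variant reads, and a total ratio of 4.18. Bgn had more reads of both alleles with Shield1, 27.3 and 54.0 reference reads and 9 and 43.8 variant reads per site. In Bcor the higher coverage lay in the introns, where the ratio was 2.77, while in the exons it was 1.11.

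**Figure D4:**
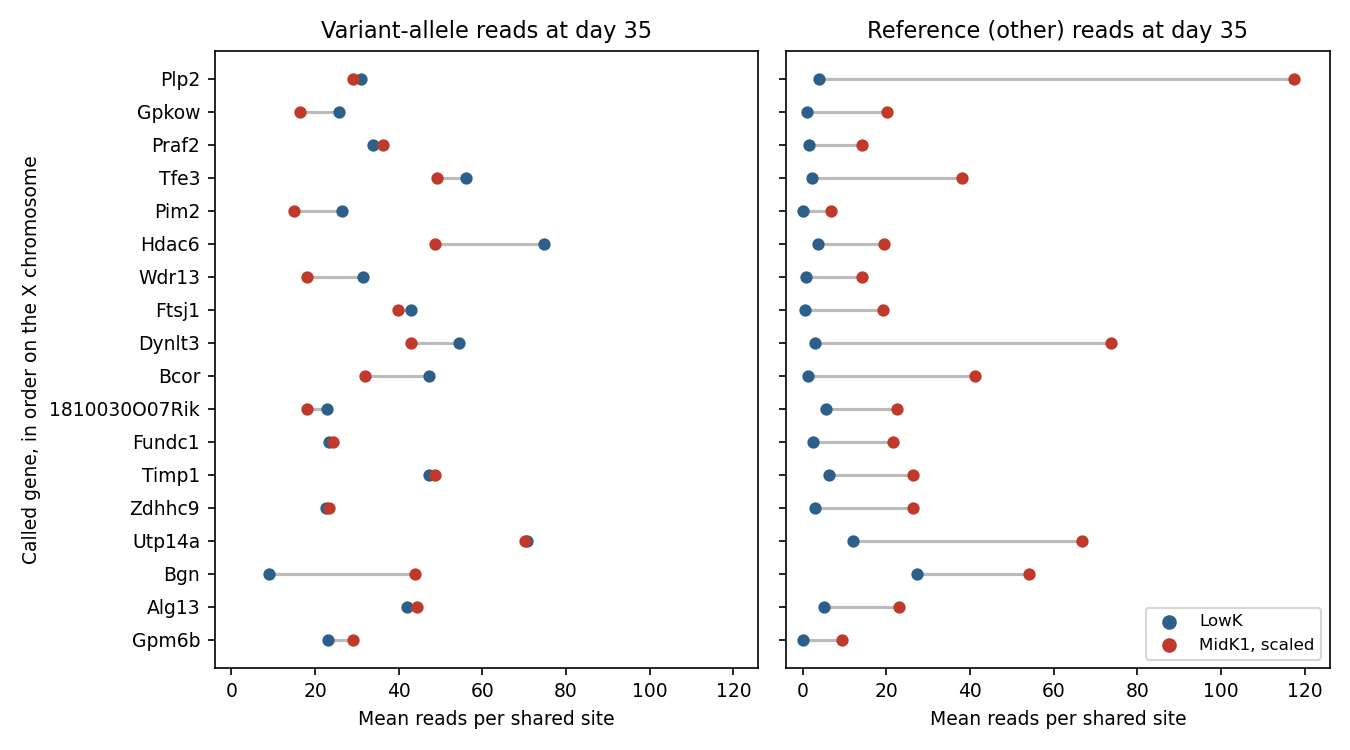
Mean reads per site (x axes) of the variant allele (left) and of the reference allele (right) in each called gene (y axis, chromosome order), without Shield1 in blue and with Shield1 in red, the latter scaled to the median gene. Reference reads are higher with Shield1 in every called gene, while variant reads are similar or lower in most and are higher in Bgn.

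Across all 235 genes, coverage differed by at least 2-fold in few: 8 genes (3.40 percent) were higher with Shield1 and 11 (4.68 percent) were lower, with 90 percent of genes between the ratios 0.526 and 1.78. Dynlt3 and Plp2 were the 2 of the 17 called genes at or above a ratio of 2. The lowest ratio among genes with at least 3 sites was that of Gpc3, a glypican gene, at 0.227. Ogt, the gene of the enzyme that adds O-linked N-acetylglucosamine, followed at 0.373, and Cited1, a transcriptional coactivator gene, at 0.408. The ratios are those of 2 libraries and have no test. The housekeeping genes as a group had a median ratio of 0.850, with 4 of 25 above 1, and took 13.7 percent of shared reads with Shield1 against 19.3 percent without.

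The other libraries place the day 35 difference. Of the 17 genes called higher, 13 had sites listed in MEF1, and in 11 of these the day 35 share without Shield1 lay within 10 points of that in fibroblasts. Dynlt3 had 5.99% in MEF1 and 5.30% without Shield1 at day 35, Tfe3 had 2.53% and 3.86%, and Hdac6 had 2.71% and 4.78%. In these genes the library without Shield1 was close to MEF1. They were called for a higher share with Shield1, and over all 235 genes the median share without it was 2.04%. The same count over all genes was not made, so this closeness does not set the called genes apart. Utp14a was not close to MEF1: its fibroblast share of 31.3% in MEF1 and 34.0% in MEF2 lay between the 14.5% found without Shield1 and the 48.7% found with it. 1810030O07Rik had 4.17% in MEF1 on 48 reads. Bgn had 3.68% in MEF1 on 17223 reads, so both day 35 libraries had moved from the fibroblast state at this gene, the one without Shield1 further.

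At the same sites on later days, the shares with Shield1 were often close to those of day 35, and the shares without it were above those of day 35 in most of the called genes. Praf2 was an exception on day 52, at 0.952% of 105 reads over 2 of its 5 sites. Dynlt3 without Shield1 had 5.30%, 22.9% and 36.1% at days 35, 52 and 56, against 63.2%, 63.3% and 61.1% with it. Hdac6 had 4.78%, 19.5% and 30.4% without, against 28.5%, 32.8% and 38.8% with Shield1. Alg13 had 10.8%, 23.9% and 23.8% without, against 34.2%, 33.8% and 34.4% with it. In each of these 3 genes the distance between the courses was smaller on day 56 than on day 35. Some genes not called at day 35 took another course. Uba1 had 22.0%, 43.8% and 47.2% with Shield1 and 3.42%, 4.6% and 8.91% without, and Klhl13 had 15.2%, 41.7% and 54.9% against 0.694%, 1.67% and 4.35%, so for them the distance was larger later.

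**Figure D5:**
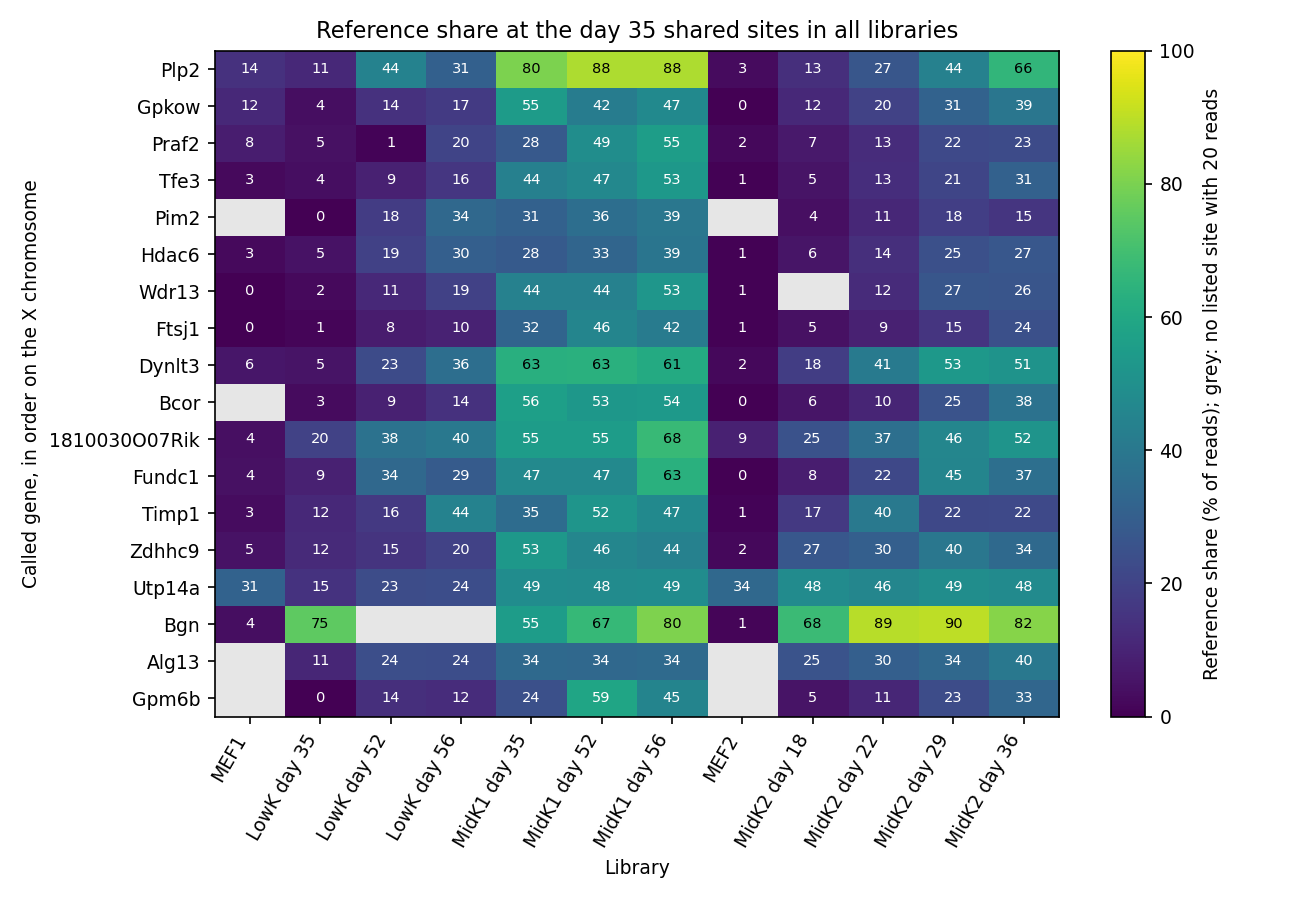
Heat map of the reference share in percent (color scale) of the called genes at their day 35 sites in all 12 libraries, with grey cells where no site was listed with 20 reads. The MEF columns are low for most genes and the MidK1 columns high at each day, and the LowK columns of days 52 and 56 lie in between for most genes.

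Tested with their own shared sites, all 17 genes had a higher share with Shield1 on days 52 and 56 as well, and 12 and 11 of them were called higher, 10 on each of the 3 days. Over all genes tested, 21 of 244 (8.61 percent) were called higher on day 52 and 21 of 243 (8.64 percent) on day 56, with 0 lower. 1810030O07Rik, Alg13, Hdac6 and Pim2 were called on day 35 alone. For 14 of the 17 on day 52 and 16 on day 56 the difference was smaller than on day 35. The 17 were chosen by their day 35 difference, so smaller values on other days can follow from that choice. The sites of a gene also differed between days. Timp1 had a difference of 3.32 points on day 56 (adjusted p = 0.82 by Fisher's exact test). Whether a gene's difference changed between days was not tested, and the days of a course may share a culture. Bgn was not listed with 20 reads without Shield1 on the later days and could not be compared.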

How the data were processed

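Per the series' design text, the authors used CLC Genomics Workbench and its Basic Variant Call to list variants on the X chromosome. The build, mm10, comes from the submitters' processing notes. Neither the aligner nor the settings of the caller is given in the sources used here. Libraries were made from poly(A) RNA with a directional kit, per the labels' protocols. Per the file headers, the deposited values are the count of reads with the variant, the count of covering reads, the percent of the first in the second, and an average base quality score. The deposited percent equalled 100 times count over coverage to within 4.98e-11. In both tables variant counts began at 5 and coverage at 10.

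The tables held 4922 variants with Shield1 and 4827 without, of which 2196 and 2258 were single-base sites with at least 20 reads. Sites with several gene names (57 of the shared ones before assignment) went to the 1 gene with an exon there in GENCODE M21, where there was 1. Of the shared sites 686 were coding, 875 in untranslated regions, 31 in noncoding exons and 32 in introns. Summed reads of a gene were tested with Fisher's exact test (two-sided) and Benjamini-Hochberg adjustment (scipy 1.17.1, pandas 2.3.3, Python 3.11.15), tested on simulated data. Intervals are 95% Wilson intervals, and for differences the Newcombe combination of these. Reads carry no molecular identifiers and sites can share reads, so intervals and limits (3 counts for a 0) cover counting error only.

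Named genes were every called gene, the 10 uncalled genes with most coverage, up to 8 uncalled genes with the largest differences at an adjusted p under 0.05, the 5 highest and 5 lowest coverage ratios among genes with at least 3 sites, and list members. The genes of the stretch from Plp2 to Ftsj1 and the list members given with values outside this rule were named after their values were seen. Members and lists were chosen with earlier results of these data known. Alternatives changed the coverage minimum, the sites used per gene, the filters and the size limit.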

Additional observations from a re-analysis of the deposited data

Results flagged for a closer look

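Sites listed in only 1 of the 2 libraries entered no comparison above. Of 154 such sites with Shield1, 99 had a variant percent between 10 and 90 (64.3%, 95% Wilson interval 56.5 to 71.4), and of 125 such sites without it, 27 did (21.6%, 15.3 to 29.6). A site that is all reference in a library is not listed there. Neither is one with fewer than 10 covering reads, fewer than 5 variant reads or less than 10 percent variant reads. Which of these left a site unlisted was not tested. Of the 99 with Shield1, 26 lay in genes called at day 35, beside 2 of the 27 without it. Of the 1632 shared sites, 179 lay in the 17 genes called higher. Bcor alone held 10 of the 26, at a reference share of 60.9%. Zrsr2, a splicing factor gene that was not called, held 7 at 68.0%, and the histone demethylase gene Phf8 held 4 at 61.8%.

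Insertions, deletions and multi-base variants were left out of the gene sums, and 279 of them were shared by both libraries with a median difference of 2.59 points. Of the 15 in called genes, 9 were higher with Shield1 by 20 points or more, and of the 264 elsewhere, 18 were. The genes were called in these same 2 libraries, so this contrast can follow from the calls and is description only. The reference share was 59.6% with Shield1 and 12.3% without at 1 such variant of Tfe3, and 65.5% and 23.3% at 1 of Wdr13. It was 74.4% and 20.7% at 4 variants of Dynlt3, all 4 of them higher by 20 points or more. At 3 variants of Bcor it was 58.7% and 30.3%, but only 1 of the 3 was higher by 20 points or more. The Bcor differences ran from 0.556 to 45.1 points. At 1 variant of 1810030O07Rik it was 87.8% and 40%. At 5 variants of Alg13 it was 39.0% and 36.6%, a far smaller distance than at its single-base sites.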

How the results depend on the processing

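No result reversed under any alternative run. The count of genes called higher, 17, was 7 of 115 genes tested with sites of at least 50 reads, 11 of 136 with sites of at least 90 percent variant in MEF1, and 33 with a limit of 10 points. The count of genes called lower, 1, was 0 with at least 10 reads, at least 50 reads, the best covered site, sites 200 bases apart or a limit of 30 points. At 50 reads Bgn had no site left. The excess of biallelic genes, 35, was 14 with at least 50 reads, 23 with genes of at least 3 sites, 21 with the MEF1 sites and 20 with a minor share of 20 percent. Fewer genes were tested under the first 3 of these. The coverage ratio of the genes called higher, 1.44, was 1.33 with at least 50 reads and 1.75 with the best covered site, and the cause was not tested. The median difference stayed between 1.73 and 2.23 points. Of 141 values of single called genes under the alternatives, 135 kept direction and call and 6 lost the call, in Bgn, Alg13 and Gpm6b. Many of the 135 repeat the main value. The filter on average base quality changed the difference of no called gene, and leaving out intron sites changed that of Bcor alone. The 135 are thus not separate checks. With at least 10 reads, 21 of 322 genes were called higher. Depth limits the genes with 1 or 2 sites, Plp2, Pim2, Zdhhc9 and Gpm6b, most. No paired analysis was possible because each condition was 1 library at day 35.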
